A study of Homo sapiens with 27 samples.

Results

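Ribosome footprints of etoposide-induced senescent cells were compared with those of cycling cells, in 3 libraries of each state out of 27 libraries in the series. The libraries were chosen by their labels alone, and the features tested were protein-coding genes in the forward-strand counts of ribosome profiling (Ribo-seq), a method that reads the stretches of mRNA shielded by ribosomes during nuclease digestion. All cells were wild-type IMR90, a line of normal lung fibroblasts, grown in high-glucose medium with serum. Senescence was induced with 3 treatments of 50 µM etoposide, and cells were harvested on day 10. Cycling cells received no drug and were harvested before they reached confluence. Lysis with cycloheximide, digestion with RNase I, a sucrose cushion, selection of footprints on a gel and rRNA depletion were common to both groups, per the labels' protocols. RNA-seq of the same states (2 cycling and 3 etoposide libraries) is given beside the footprints where it bears on them. Irradiated cells (15 Gy, harvested after 10 days) and cells made quiescent by contact, with 3 Ribo-seq libraries each, serve to show where the etoposide state differs. Cycling cells treated with 25 nM thapsigargin, a blocker of the SERCA calcium pump, for 3 h (2 Ribo-seq libraries) entered the fit only to share its estimate of spread.

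Etoposide traps topoisomerase II on DNA that it has cut, so the breaks persist. Such damage stabilises p53, which raises the cyclin-dependent kinase inhibitor p21 (CDKN1A), holds RB in its active form and shuts down genes of S phase and mitosis. Fibroblasts that stay arrested lose lamin B1 and secrete cytokines, proteases and growth factors, together called the senescence-associated secretory phenotype (SASP), many of them under control of NF-kappaB and C/EBP beta. A footprint count for a gene reflects both how much of its mRNA is present and how many ribosomes sit on it.

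The cycling libraries held 9874835 to 14439646 gene counts and the etoposide libraries 6159333 to 6980115. Between 19.8% and 22.3% of reads mapped to several places in the etoposide libraries and 26.5% to 31.9% in the cycling ones. Libraries of one state differed from each other by more than sampling noise, so none was a second copy. On the first principal component of the 6 libraries, which held 83.8% of the variance, the 2 groups lay apart. All 11 fibroblast markers had footprints in all 6 libraries, and their summed level was 35169 to 37063 counts per 1000000 (CPM) in cycling and 29547 to 30614 CPM in etoposide cells. Of the markers of other cells, CDH1, KRT5, SFTPC and CD68 were at 0 in all 6 libraries. The 8 epithelial markers summed to 118 to 164 CPM in cycling and 67.0 to 82.1 CPM in etoposide cells, and the 3 that could be tested, the keratins KRT8 (-0.67), KRT18 (-0.62) and KRT19 (-2.54), were lower. KRT19 had 23.2 to 40.4 CPM in cycling and 5.17 to 6.0 CPM in etoposide cells. The part of such markers in the results below was not tested. The 8 blood markers summed to 0.105 to 0.305 CPM in cycling and 1.84 to 3.41 CPM in etoposide cells. The 6 endothelial markers summed to 16 to 29.2 and 59.9 to 82.3 CPM, nearly all of it TEK, with CDH5 and PECAM1 under 0.5 CPM in each library. In bulk libraries, a change in all cells and a change in the share of cells cannot be told apart, and scaling sets the average change to about 0. Nothing in the labels says that replicates came from separate cultures, so p-values measure the spread among these libraries.

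Of 11766 genes tested, 3986 (33.9%) were called changed by edgeR's quasi-likelihood test at an adjusted p under 0.05. Of all genes tested, 1971 (16.8%) were higher and 2015 (17.1%) lower in etoposide cells. At least 2-fold changes were called for 786 of the higher and 856 of the lower genes. The median log2 fold change over all genes tested was 0.01. The gene lists below can be read against this median and against the shares of 16.8% higher and 17.1% lower. A fit on the 6 libraries alone, without the other states, called 6020 of 11507 genes, 2925 higher and 3095 lower. Without quiescent replicate 1, an alternative chosen after the data were seen, 4509 of 11713 genes were called, 2207 higher and 2302 lower.

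**Figure D1:**
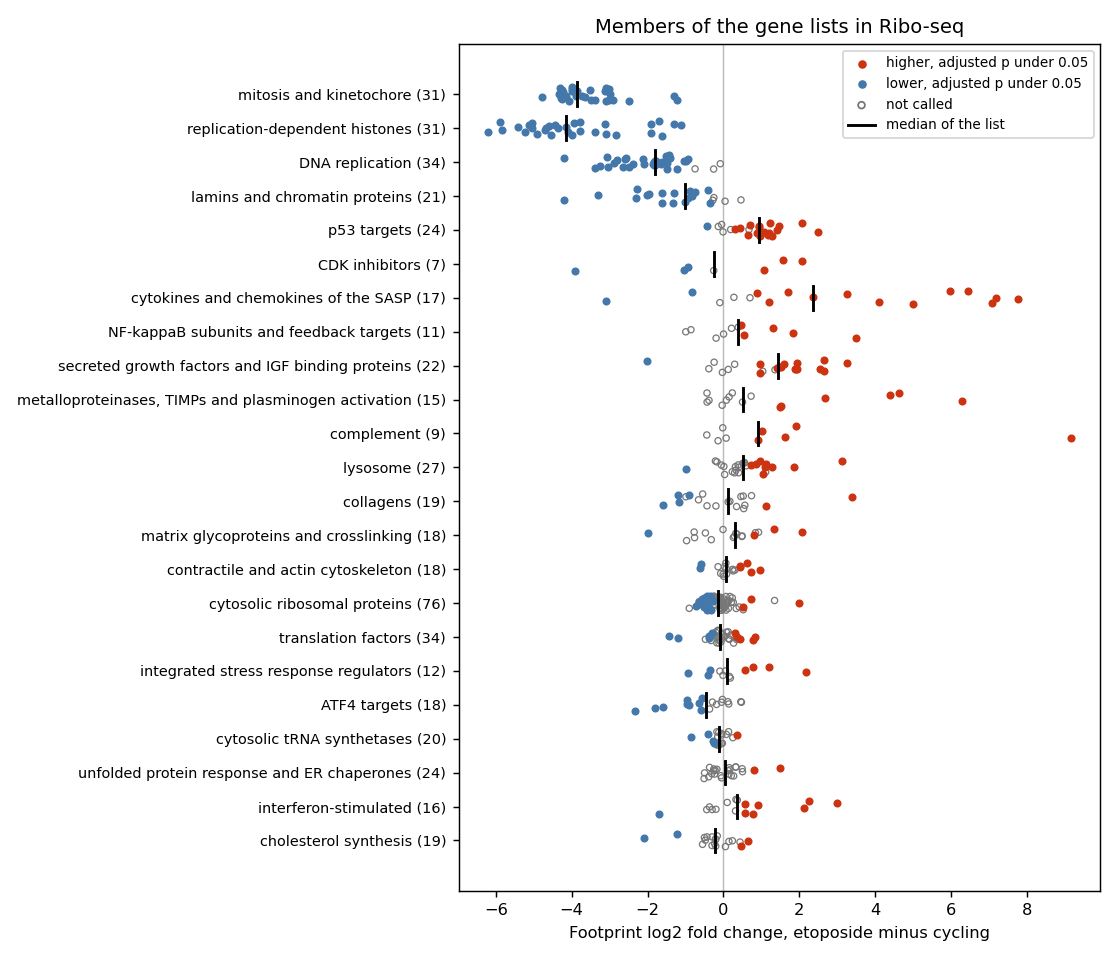
Footprint log2 fold change (etoposide minus cycling, horizontal axis) of each tested member of 23 gene lists, with the number tested after each name. Filled points passed the test (red higher, blue lower), open points did not, and bars mark list medians, from -4.15 for histones to 2.37 for SASP cytokines and chemokines.

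Mitotic genes fell together. All 31 tested members of the mitosis and kinetochore list were lower, with a median log2 fold change of -3.87, where 17.1% of all genes tested were called lower. Their summed footprint level was 3811 to 4018 CPM in cycling cells and 362 to 402 CPM in etoposide cells. MKI67, which coats mitotic chromosomes and marks dividing cells, had 205, 182 and 223 CPM in the cycling libraries and 13.1, 9.76 and 8.80 CPM in the etoposide libraries. The groups lie far apart, and its log2 fold change was -4.27 ± 0.26 (SE, adjusted p = 3.08e-08). KIF20A, a kinesin of the late mitotic spindle, fell from 264, 278 and 254 to 11.2, 9.76 and 7.94 CPM, a log2 fold change of -4.78 ± 0.19 (adjusted p = 3.53e-10). PLK1, the kinase that drives mitotic entry and exit, fell from 102, 90.7 and 107 to 5.23, 6.35 and 3.45 CPM. DLGAP5 (-4.33) and KIF2C (-4.27), both spindle proteins, fell by similar amounts on this scale. TOP2A, the topoisomerase II form of dividing cells and a direct target of etoposide, fell from 381, 404 and 349 to 33.1, 37.2 and 31.1 CPM (log2 fold change -3.48 ± 0.19). TOP2B, the form also made in resting cells, fell less, from 292, 322 and 252 to 175, 167 and 177 CPM (-0.74 ± 0.14, adjusted p = 0.00106).

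The promoters of these genes share a short element that the choice of the list did not use. The cell cycle genes homology region (CHR), searched as TTTGAA or TTCGAA on both strands from 250 bases before to 50 after the RefSeq start (GRCh38.p14), was present in 19 of the 26 mitotic promoters that could be matched (73.1%). It was present in 11.4% of the 9690 promoters matched among all tested genes, in 16.2% of those of genes called lower and in 9.66% of those called higher. Among mitotic genes, those with the element had a median log2 fold change of -3.87 and the 7 without it one of -3.98. The following windows, read 5′ to 3′ on the gene's strand with the element in capitals, show it close to the start of genes that fell. They are PLK1 (chr16:23678840-23678885), CCNB2 (chr15:59105097-59105142), CDC20 (chr1:43358896-43358941), MKI67 (chr10:128126427-128126472), CDK1 (chr10:60778150-60778195) and TOP2A (chr17:40418022-40418067, element on the opposite strand).
PLK1: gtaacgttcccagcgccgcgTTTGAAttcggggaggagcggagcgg
CCNB2: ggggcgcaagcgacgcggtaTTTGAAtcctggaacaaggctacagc
CDC20: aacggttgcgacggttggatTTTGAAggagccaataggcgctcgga
MKI67: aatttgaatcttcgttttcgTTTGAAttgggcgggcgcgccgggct
CDK1: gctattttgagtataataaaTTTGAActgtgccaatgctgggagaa
TOP2A: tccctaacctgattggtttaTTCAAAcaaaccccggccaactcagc
In PLK1, CCNB2 and MKI67 the element ended 24 bases before the start, in CDC20 60, in TOP2A 146 and in CDK1 156 bases before it. CCNB2, a B-type cyclin, fell from 144, 147 and 134 to 9.59, 9.76 and 9.15 CPM. CDC20, which activates the anaphase-promoting complex, fell from 135, 125 and 136 to 8.89, 6.51 and 5.70 CPM. CDK1, the mitotic kinase itself, fell from 90.1, 87.5 and 87.3 to 14, 11 and 10.5 CPM. The match is a description of these letters and no evidence of binding.

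Genes of DNA replication fell too, by less. Of 34 tested, 31 were lower and none higher, with a median log2 fold change of -1.81. TK1, a thymidine kinase of S phase, had the largest fall, from 141, 121 and 160 to 8.54, 7.59 and 6.73 CPM (-4.20 ± 0.16, adjusted p = 3.50e-10). CDC45, a part of the replicative helicase, fell from 32.8, 31.0 and 30.7 to 3.49, 3.72 and 2.59 CPM (-3.26 ± 0.30). MCM10, which activates that helicase, changed by -3.08 and DNA2, a nuclease of the lagging strand, by -3.38. PCNA, the sliding clamp that also serves repair, did not pass the test: its levels were 295, 271 and 245 CPM in cycling and 216, 253 and 296 CPM in etoposide cells, and the groups overlap. An E2F motif (TTTCCCGC, TTTGGCGC, TTTCGCGC or TTTGCCGC, both strands) was present in 18 of 29 matched replication promoters (62.1%), PCNA's among them, and in 5.54% of all matched promoters. Replication genes with the motif had a median log2 fold change of -1.82 and the 11 without it one of -1.79.

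Replication-dependent histones, which package new DNA, took 8587 to 10350 CPM of the cycling libraries and 1564 to 1815 CPM of the etoposide libraries. All 31 tested on the list were lower, with a median of -4.15, and the 12 largest falls among called genes with a mean of at least 10 CPM in cycling cells and no overlap between groups were all histone genes on chromosome 6. H2AC14 (chromosome 6, 27814302 to 27814777) fell from 106, 105 and 125 to 1.4, 1.55 and 1.55 CPM, a log2 fold change of -6.21 ± 0.21 (adjusted p = 1.84e-10). The linker histone gene H1-5 fell from 514, 395 and 554 to 15.9, 13.8 and 14.7 CPM (-5.04 ± 0.16). The others were H2BC14, H4C9, H3C12, H2BC13, H3C8, H2AC16, H3C10, H2BC3, H3C3 and H2BC6, from -5.89 to -4.91. H2AC6, whose transcript is unlike most of these also made outside S phase, fell least on the list, from 1222, 1077 and 971 to 457, 541 and 506 CPM (-1.12 ± 0.14). Histone genes have near-identical copies, and reads that fit several places are in no gene's count, so the level of a single copy is uncertain.

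Proteins of the nuclear envelope and chromatin were mostly lower, 17 of 21 with none higher (median -1.01). LMNB1, lamin B1 of the inner nuclear membrane, fell from 200, 176 and 191 to 12.4, 9.76 and 8.80 CPM (-4.20 ± 0.17, adjusted p = 3.73e-10). HMGB2, a DNA-bending chromatin protein, fell from 283, 271 and 258 to 27.4, 26.2 and 28.8 CPM (-3.30 ± 0.18). LBR, the lamin B receptor, changed by -2.31 and TMPO, which anchors lamins to chromatin, by -2.27. LMNA, the A-type lamin, had 1856, 1424 and 1561 CPM in cycling and 1435, 1422 and 1202 CPM in etoposide cells and did not pass the test.

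**Figure D2:**
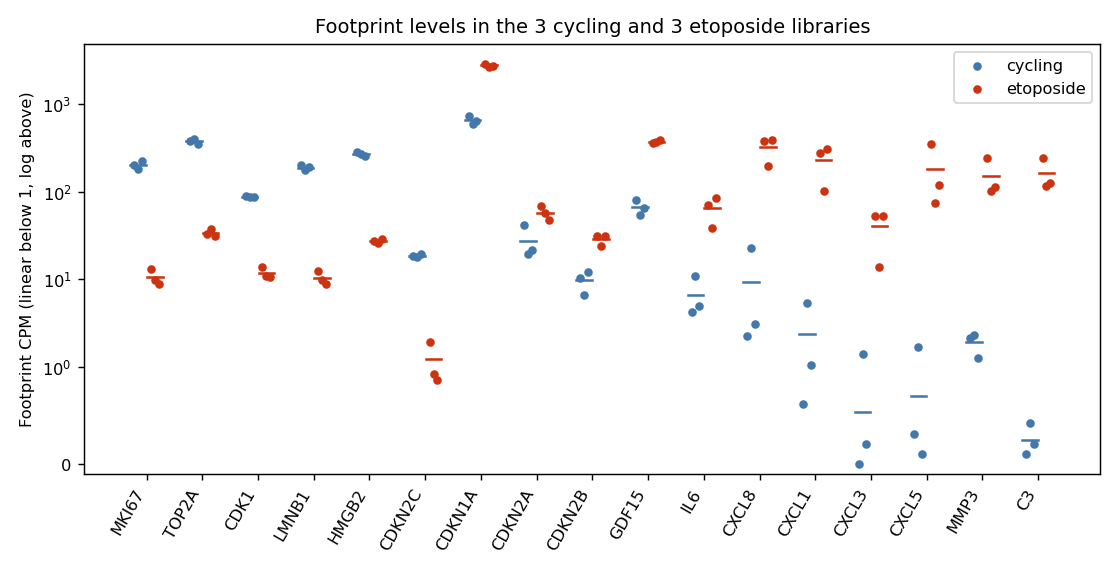
Footprint CPM (vertical axis, linear below 1 and logarithmic above) of 17 genes in each of the 3 cycling (blue) and 3 etoposide (red) libraries, with bars at the group means. The proliferation genes at the left lie lower and the CDKN1A, GDF15, cytokine, MMP3 and C3 points higher in every etoposide library than in any cycling library.

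Targets of p53 rose as a group. Of 24 tested, 18 were higher and 1 lower, where 16.8% of all genes were called higher, and the median log2 fold change was 0.93. Their summed level went from 2090 to 2211 CPM in cycling to 5110 to 5498 CPM in etoposide cells. CDKN1A was the most abundant of them in the etoposide libraries. It had 735, 596 and 643 CPM in the cycling and 2875, 2680 and 2762 CPM in the etoposide libraries (2.08 ± 0.13, adjusted p = 2.73e-08). GDF15, a secreted stress hormone, rose from 80.6, 54.7 and 64.7 to 362, 373 and 386 CPM (2.49 ± 0.31, adjusted p = 3.52e-05). MDM2, the ubiquitin ligase that feeds back on p53, rose from 184, 199 and 177 to 511, 497 and 552 CPM (1.47 ± 0.10). BTG2, an antiproliferative regulator of mRNA decay, rose from 6.47, 5.30 and 7.73 to 14.8, 16 and 20.5 CPM.

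The CDK inhibitors split. CDKN1A, CDKN2B and CDKN2A were higher and 3 of the 7 were lower. CDKN2B (p15) rose from 10.5, 6.57 and 12.2 to 31.0, 24.3 and 30.9 CPM (1.57 ± 0.28, adjusted p = 0.000627). CDKN2A, which encodes p16 and ARF, had 41.5, 19.6 and 21.4 CPM in cycling and 68.0, 57.0 and 47.3 CPM in etoposide cells (1.07 ± 0.28, adjusted p = 0.00949). Its mRNA, at 14.2 and 14.5 CPM in cycling and 16.8, 19.6 and 20.6 CPM in etoposide cells, did not pass the test (0.41 ± 0.22, adjusted p = 0.170), but the difference between the footprint and mRNA changes did not pass either (0.61 ± 0.37, adjusted p = 1.00). CDKN2C (p18), an E2F target, fell from 18.5, 17.8 and 19.4 to 1.92, 0.930 and 0.863 CPM (-3.90 ± 0.27).

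Most SASP cytokines and chemokines rose. Of 17 tested, 12 were higher and 2 lower, with a median log2 fold change of 2.37, and the summed level of the list went from 259 to 315 CPM to 817 to 1745 CPM. CXCL8 (interleukin 8), which draws neutrophils, had 2.26, 22.9 and 3.07 CPM in the cycling and 382, 195 and 386 CPM in the etoposide libraries (5.01 ± 0.70, adjusted p = 8.81e-05). CXCL1, a ligand of the same receptor, rose from 0.617, 5.44 and 1.06 to 274, 103 and 307 CPM (6.44 ± 0.71). CXCL5 had 0.308, 1.70 and 0.106 CPM in cycling and 347, 75.3 and 120 CPM in etoposide cells (7.77 ± 0.80). For these chemokines cycling replicate 2 was the highest of its group and etoposide replicate 2 the lowest of its own, and no values of the 2 groups overlap.

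CXCL6 rose by 7.19 on the log2 scale and CXCL3 by 5.97, and CCL7 by 4.10. IL6, the best known SASP cytokine, rose from 4.21, 10.9 and 4.97 to 71.0, 38.9 and 85.9 CPM (3.25 ± 0.50, adjusted p = 0.000201). CCL2, which draws monocytes, rose from 57.2, 51.6 and 58.5 to 369, 238 and 256 CPM. IL33, a nuclear alarmin, had 1 footprint count in the cycling libraries together and 106 in the etoposide libraries, a ratio per scaled library of 196 with an exact 95% counting interval of 34.5 to 7832. CXCL12, which keeps stem cells in their niche, went the other way, from 61.8, 82.0 and 65.1 to 11.7, 5.58 and 7.08 CPM (-3.11 ± 0.35). IL32 was the other member that fell (-0.84 ± 0.21). IL1A, an upstream trigger of the SASP, had 1.54, 2.68 and 1.48 CPM in cycling and 1.74, 1.39 and 3.97 CPM in etoposide cells and did not pass the test. CXCL2, CCL5, CCL8, CCL20, CSF2, CSF3 and IL24 had too few counts to be tested.

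Several of these chemokine genes lie in a cluster on chromosome 4, and the promoters of 5 of them, CXCL2 included, carry an NF-kappaB motif. CXCL8 (73740569 to 73743716), CXCL6 (73836678 to 73838760), CXCL1 (73869393 to 73871308), CXCL5 (73995642 to 73998677) and CXCL3 (74036589 to 74038689) lie there in this order in GRCh38.p14. The NF-kappaB motif, searched on both strands of the same windows, was present in 6 of the 14 SASP promoters matched (42.9%), those of IL6, CXCL1, CXCL3, CXCL5, CXCL6 and IL32, and in 5 of the 10 promoters matched for NF-kappaB subunits and feedback targets. It was present in 12.8% of all matched promoters and in 11.4% of those of genes called higher. The windows below show, in capitals, the motif in CXCL1 (chr4:73869295-73869344), CXCL3 (chr4:74038738-74038787), CXCL2 (chr4:74099243-74099292), CXCL5 (chr4:73998738-73998787), CXCL6 (chr4:73836569-73836618) and IL6 (chr7:22727107-22727156). Each window is read on the gene's strand. The motif itself lies on the gene's strand in IL6 and on the opposite strand in the CXCL genes.
CXCL1: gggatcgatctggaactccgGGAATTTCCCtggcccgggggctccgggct
CXCL3: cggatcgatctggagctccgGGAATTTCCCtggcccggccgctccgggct
CXCL2: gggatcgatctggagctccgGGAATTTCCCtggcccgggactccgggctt
CXCL5: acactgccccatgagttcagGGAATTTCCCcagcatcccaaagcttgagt
CXCL6: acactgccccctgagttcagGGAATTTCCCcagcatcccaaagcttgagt
IL6: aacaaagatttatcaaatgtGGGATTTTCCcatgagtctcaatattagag
The motif ended 64 to 81 bases before the start in these 6 genes. CXCL1, CXCL2 and CXCL3 are also close copies in their coding parts, so reads that fit more than 1 of them are missing from their counts and the split between them is uncertain. IL32, which fell, holds the motif as well.

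Of the 11 NF-kappaB subunits and feedback targets tested, 5 were higher and none lower (median 0.39). NFKBIZ, an inducible cofactor of NF-kappaB at cytokine genes, rose from 9.15, 15.8 and 11.4 to 151, 110 and 156 CPM (3.50 ± 0.21, adjusted p = 2.36e-08). ICAM1, an adhesion molecule for leukocytes, rose from 24.0, 21.6 and 23.4 to 85.4, 86.0 and 75.4 CPM (1.84 ± 0.28). TNFAIP3 (A20), which restrains the pathway, rose by 1.31 and NFKB2, the p100 subunit, by 0.53.

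Of 22 secreted growth factors and IGF binding proteins, 14 were higher and 1 lower (median 1.43). ANGPTL4, an inhibitor of lipoprotein lipase, rose from 1.75, 0.848 and 2.01 to 12.2, 17 and 13.5 CPM (3.25 ± 0.56). IGFBP2 rose from 34.6, 32.5 and 37.5 to 255, 205 and 192 CPM (2.64 ± 0.35), and IGFBP3 (1.51) and IGFBP7 (1.46), which also bind insulin-like growth factors, were higher as well. ANGPT1, a ligand of the receptor TEK, rose by 2.64 and STC1, a glycoprotein hormone, by 2.54.

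Among proteases and their inhibitors 6 of 15 were higher and none lower (median 0.50), where 16.8% of all genes tested were higher. Without quiescent replicate 1, 8 were higher and 3 lower, where 2207 of 11713 genes were higher. On the 6 libraries alone 7 were higher and 3 lower, where 2925 of 11507 genes were higher. MMP3, stromelysin, had 2.16, 2.33 and 1.27 CPM in cycling and 244, 102 and 114 CPM in etoposide cells (6.28 ± 0.75, adjusted p = 2.19e-05). MMP10, a close relative, rose from 0.411, 0.565 and 0.423 to 17.8, 6.66 and 12.3 CPM (4.64 ± 0.48). SERPINB2, an inhibitor of plasminogen activators, rose by 4.38, and SERPINE2, a protease inhibitor of the same family, rose from 152, 166 and 177 to 942, 1251 and 960 CPM. MMP1, often named with MMP3, had 215, 223 and 248 CPM in cycling and 191, 146 and 172 CPM in etoposide cells and did not pass the test.

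C3, the central component of complement, had the largest rise among called genes with a mean of at least 10 CPM in etoposide cells and no overlap between groups. It had 0.103, 0.424 and 0.212 CPM in the cycling libraries, 9 counts in all, and 244, 117 and 127 CPM in the etoposide libraries, 2888 counts (9.17 ± 0.91, adjusted p = 4.05e-06). The ratio of scaled counts was 595, with a 95% counting interval of 313 to 1302. Of 9 complement genes tested, 5 were higher and none lower, where 16.8% of all genes tested were higher. Without cycling replicate 1, 3 complement genes were higher, where 1515 of 11708 genes were. CD46, a cell-surface cofactor of C3b cleavage, rose from 29.4, 37.3 and 36.8 to 93.1, 110 and 115 CPM (1.62 ± 0.27). The 12 largest rises under the same conditions also held TNFSF18 (5.83), SLC16A6 (5.73), ADAMTS19 (5.38), CHI3L1 (5.33) and IL13RA2 (5.26), each at under 1 CPM in every cycling library. CHI3L1, a secreted chitinase-like protein, varied most among them, with 38.5, 5.27 and 8.97 CPM in the etoposide libraries.

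Interferon-stimulated genes were divided, 7 of 16 higher and 1 lower (median 0.35). OAS3, an antiviral enzyme induced by interferon, fell from 28.0, 22.3 and 25.2 to 8.54, 7.90 and 6.56 CPM (-1.71 ± 0.29). Without etoposide replicate 2 4 of the 13 members then tested were higher.

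Lysosomal and secretory pathway genes depended on which libraries shared the estimate of spread. In the fit over all states, 9 of 27 lysosomal genes were higher and 1 lower (median 0.51), where 16.8% of all genes tested were higher. CTSS, a cathepsin of antigen processing, rose from 1.64, 2.26 and 1.48 to 21.4, 12.4 and 14.7 CPM (3.14 ± 0.35). CTSK, a collagen-degrading cathepsin, rose by 1.86, GAA, which degrades glycogen, by 1.29, and ATP6V1A, a subunit of the proton pump, rose from 261, 274 and 246 to 574, 543 and 567 CPM (1.11 ± 0.08). GLB1, which encodes the enzyme read as senescence-associated beta-galactosidase, had 109, 130 and 112 CPM in cycling and 143, 152 and 135 CPM in etoposide cells. Its groups do not overlap, and it did not pass the test (0.29 ± 0.16, adjusted p = 0.189).

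Quiescent replicate 1 stood apart from the other quiescent libraries in such genes. The 25 genes of the list of the unfolded protein response and endoplasmic reticulum (ER) chaperones summed to 2463 CPM in it and to 5830 and 6306 CPM in the other quiescent libraries. Without that library, an alternative chosen after the data were seen, 16 of the 27 lysosomal genes were higher and 1 lower. Of all 11713 genes in that fit, 2207 were higher and 2302 lower. On the 6 cycling and etoposide libraries alone, 20 of the lysosomal genes were higher and 1 lower. There 2925 of all 11507 genes were higher and 3095 lower.

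How often matrix genes were called depended on the fit. In the main fit 31.6% of collagen genes and 22.2% of matrix glycoproteins and crosslinking enzymes were called. Of all genes tested, 33.9% were, 16.8% higher and 17.1% lower. On the 6 libraries alone, 15 of 19 and 15 of 18 were called, more often than all genes (6020 of 11507). Without quiescent replicate 1, 15 of 19 and 12 of 18 were, again more often than all genes (4509 of 11713). Of 19 collagen genes, 2 were higher and 4 lower (7 and 8 without quiescent replicate 1, and 1 and 2 without any 1 etoposide library), and their summed level was 31656 to 34666 CPM in cycling and 23944 to 24105 CPM in etoposide cells. COL1A1, the main chain of type I collagen, fell from 12636, 11428 and 12768 to 6528, 6985 and 5995 CPM (-0.92 ± 0.27, adjusted p = 0.0174), a call lost without etoposide replicate 1 or 3 (adjusted p up to 0.0635). COL14A1, which binds collagen fibrils, rose from 20.1, 28.4 and 19.7 to 291, 191 and 238 CPM (3.39 ± 0.37). Of 18 matrix glycoproteins and crosslinking enzymes, 3 were higher and 1 lower (7 and 5 without quiescent replicate 1). LUM, a keratan sulfate proteoglycan, rose from 126, 173 and 151 to 609, 601 and 692 CPM, and BGN, a small proteoglycan of the same family, fell from 483, 465 and 540 to 122, 112 and 144 CPM. FN1, fibronectin, was among the 10 most abundant genes at 8442 to 8684 CPM in etoposide and 7092 to 9436 CPM in cycling cells, and did not pass the test. In the contractile list 5 of 18 were higher and 2 lower, TPM2, a tropomyosin, rising from 3347, 3278 and 3603 to 7338, 7190 and 5439 CPM.

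The integrated stress response lowers general initiation through phosphorylated eIF2 and favours translation of ATF4, which induces amino acid transport and synthesis. Of its 12 regulators tested, 4 were higher and 3 lower (median 0.10), where 16.8% of all genes tested were higher and 17.1% lower. With RLE scaling 4 were higher and 1 lower. Without etoposide replicate 1 or 2 the counts were 2 and 1, without cycling replicate 1 or 3 they were 3 and 1, and without cycling replicate 2 they were 2 and 2. ATF4 had 177, 170 and 204 CPM in cycling and 133, 145 and 157 CPM in etoposide cells (-0.34 ± 0.12, adjusted p = 0.0426). That call was lost with 2 other scalings (adjusted p = 0.0585 and 0.0512) and without cycling replicate 1 or 3 or etoposide replicate 1 or 2 (adjusted p up to 0.167). DDIT3 (CHOP), which ATF4 induces in prolonged stress, had 10.6, 11 and 15.6 CPM in cycling and 9.94, 15.5 and 16.4 CPM in etoposide cells (0.18 ± 0.23, adjusted p = 0.590). Its mRNA was higher by 0.81 ± 0.14 (adjusted p = 0.000486), and the difference between both changes did not pass the test (-0.68 ± 0.29, adjusted p = 1.00). PPP1R15A, which directs the phosphatase of eIF2, had 56.1, 39.1 and 66.5 CPM in cycling and 95, 82.9 and 62.0 CPM in etoposide cells. The groups overlap, and its call (0.57 ± 0.20, adjusted p = 0.0384) was lost on the 6 libraries alone (adjusted p = 0.0553) and without low-count filtering (adjusted p = 0.0578). It was also lost without cycling replicate 1 or 2 or etoposide replicate 1 or 2 (adjusted p up to 0.172).

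ATF3 (7.5, 6.71 and 6.77 to 39.4, 26.2 and 30.2 CPM, 2.19 ± 0.19) and CEBPB (83.9, 67.3 and 70.4 to 158, 148 and 201 CPM, 1.19 ± 0.17) rose. Both encode basic leucine zipper factors, and C/EBP beta also binds cytokine promoters. Of 18 ATF4 targets, 9 were lower and none higher (median -0.46), where 17.1% of all genes tested were lower. On the 6 libraries alone 9 of 17 were lower and 2 higher, where 3095 of 11507 genes were lower. SLC7A5, an importer of large neutral amino acids, fell from 170, 152 and 193 to 30.5, 35 and 35.9 CPM (-2.34 ± 0.35). PHGDH, the first enzyme of serine synthesis, fell from 490, 491 and 517 to 147, 119 and 166 CPM (-1.79 ± 0.13, adjusted p = 1.83e-07). Of 20 cytosolic tRNA synthetases, 1 was higher and 4 lower (2 lower without cycling replicate 1 or 2). The main fit thus called 25% of this list, below the 33.9% of all genes tested. HSPA5 (BiP), the main ER chaperone, had 1024, 1077 and 1129 CPM in cycling and 1169, 1246 and 1106 CPM in etoposide cells (0.12 ± 0.26, adjusted p = 0.753). Of 24 genes of the unfolded protein response and ER chaperones, 2 were higher, DNAJB9 (1.49) and ERN1 (0.79), and none lower. The main fit thus called 8.33% of this list, again below the 33.9% of all genes tested. The ERN1 call was lost in 5 of the 6 fits that left out 1 library of either group (adjusted p up to 0.110). Without quiescent replicate 1, 5 of the 24 were higher and 4 lower, where 4509 of 11713 genes were called. On the 6 libraries alone 6 were higher and 7 lower, where 6020 of 11507 genes were called. In both of these fits the list was called about as often as all genes.

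Most ribosomal proteins did not pass the test. Of 76 tested, 17 were lower and 3 higher, where 17.1% of all genes tested were called lower and 16.8% higher. Most of the calls in this list were thus lower. Their median was -0.16, and their summed level was 20640 to 23986 CPM in cycling and 18582 to 18976 CPM in etoposide cells. Without cycling replicate 3, 11 were lower, and without cycling replicate 2, 18 were. These were the lowest and highest counts among the fits that left out 1 library of either group. RPL4 fell from 270, 233 and 310 to 148, 169 and 170 CPM (-0.74 ± 0.13). RPS6, a protein of the small subunit, fell from 558, 512 and 514 to 372, 376 and 353 CPM (-0.53 ± 0.09). Many ribosomal proteins have processed pseudogenes, and their counts are uncertain for that reason.

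The mRNAs of the translation machinery often begin with a terminal oligopyrimidine (TOP) tract, a C followed by at least 4 pyrimidines, through which mTOR controls them. By the RefSeq starts, 40 of 60 matched ribosomal protein genes (66.7%) and 5.45% of all 9690 matched genes began with one. The first 15 bases of RPS6 and of EEF2, the elongation factor that moves the ribosome along, show the tract in capitals.
RPS6: CTCTTTTCCgtggcg
EEF2: CTCTTCCgccgtcgt
Ribosomal protein genes with a TOP tract at the RefSeq start had a median footprint log2 fold change of -0.19 and the rest one of -0.12. The median difference between footprint and mRNA change was -0.01 with the tract at that start and 0.06 without it. Some of the rest, such as RPL10A and RPL4, hold a run of pyrimidines a few bases inside the RefSeq start. The split may thus not separate mRNAs with and without the tract. EEF2 was higher, at 2558, 2002 and 2389 CPM in cycling and 3124, 3002 and 2838 CPM in etoposide cells (0.37 ± 0.12, adjusted p = 0.0255), a call lost without cycling replicate 2 or etoposide replicate 1 or 2 (adjusted p up to 0.114). Of 34 translation factors 5 were higher and 5 lower, in all 29.4% called where 33.9% of all genes tested were. The higher count was 2 without etoposide replicate 1 or 2 and 3 without cycling replicate 2 or 3. EIF4EBP1, which sequesters the cap-binding factor when mTOR is off, fell from 59.4, 69.4 and 73.0 to 22, 24.2 and 29.0 CPM (-1.43 ± 0.18). EEF2K, the kinase that inhibits EEF2, was lower as well (-1.20 ± 0.14). EIF4EBP2, a relative of EIF4EBP1, went the other way, from 30.5, 36.1 and 36.5 to 58.4, 67.2 and 51.1 CPM (0.78 ± 0.15). EIF4A2 was also higher (0.83 ± 0.10).

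Footprint changes followed mRNA changes closely across genes. In RNA-seq, 4594 of 13291 genes (34.6%) were called changed. Of the 11715 genes in both fits, 1347 were higher and 1495 lower in both assays. None was higher in footprints and lower in mRNA, and 2, H2AC6 and SYNGR1, went the other way. Across these genes the log2 fold changes correlated with Pearson's r = 0.934 and Spearman's rho = 0.872, given as a description, since genes are not independent replicates.

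A change in translational efficiency (TE), tested as the difference between footprint and mRNA changes, was called for 8 genes (0.0683%), 3 higher (0.0256%) and 5 lower (0.0427%), while 450 had an unadjusted p under 0.05. With a replicate block that pairs the RNA-seq and Ribo-seq libraries of one number, 13 genes were called, 7 of these 8 among them, and DUT was not (adjusted p = 0.304). The footprint and RNA-seq files use different gene lists, and a gene whose boundaries differ between them can show such a difference, which was not tested. RPL7 had 4.62, 5.09 and 5.61 CPM of footprints in cycling and 21.8, 19.1 and 20.2 CPM in etoposide cells, against 1603 and 1563 and then 1369, 1275 and 1275 CPM of mRNA. Its TE was higher by 2.22 ± 0.22 (adjusted p = 6.54e-06), on footprint levels far below its mRNA level in both states. The other genes with a higher TE fell outside the naming rule and were named after their values were seen. QRICH1 (1.5 ± 0.22) had 108 to 117 CPM of footprints in cycling and 115 to 119 CPM in etoposide cells, but only 14.6 and 14.8 CPM of mRNA, then 4.67 to 5.63 CPM. CDC42 (1.26 ± 0.24), a GTPase of the cytoskeleton, had 84.8 to 113 and 94.5 to 103 CPM of footprints, and 2.75 to 3.10, then 1.01 to 1.30 CPM of mRNA.

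H3C10 had the largest fall in TE (-2.32 ± 0.30, adjusted p = 0.000278): its footprints changed by -5.06 and its mRNA by -2.79 on the log2 scale. FUT10, a fucosyltransferase, followed (-1.99 ± 0.24, adjusted p = 7.66e-05), with footprints at 52.2, 48.3 and 43.5 and then 8.54, 9.76 and 11.2 CPM, and mRNA at 22 and 25.0 and then 18.2, 19.4 and 17.8 CPM. H2AC6 (-1.58 ± 0.21, adjusted p = 0.000321) fell in footprints while its mRNA rose by 0.41. DUT (-1.10 ± 0.21), which keeps uracil out of DNA, and NCS1 (-1.02 ± 0.20), a calcium sensor, were the remaining genes. The calls of CDC42, DUT and NCS1 were lost in 8 or 9 of the 11 fits that left out 1 cycling or etoposide library of either assay, with adjusted p up to 0.394, 0.283 and 0.346. Those of the other 5 genes were kept in each such fit.

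**Figure D3:**
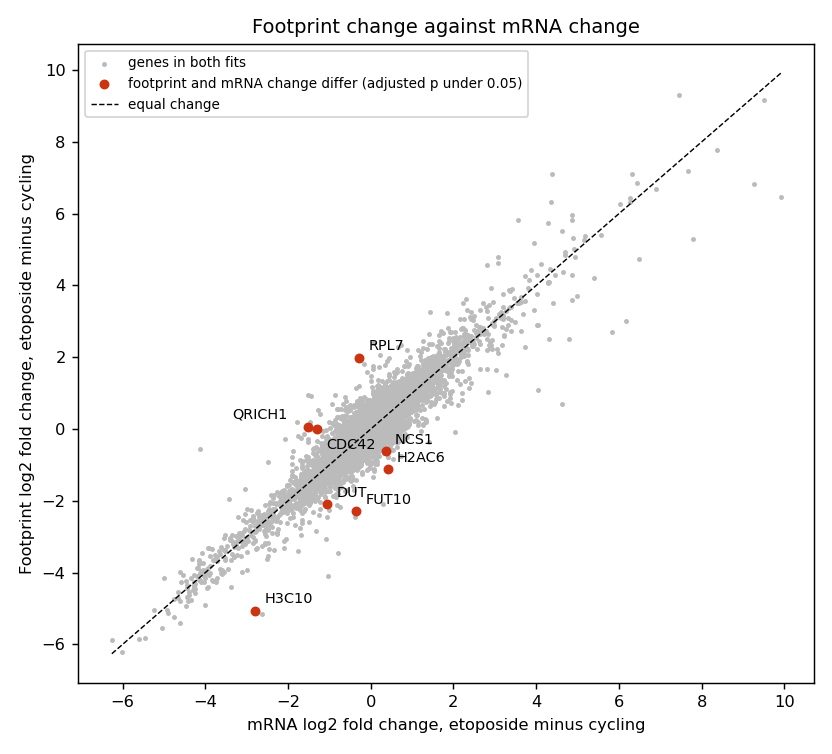
Log2 fold change (etoposide minus cycling) of footprints (vertical) against mRNA (horizontal) for 11715 genes, with the line of equal change dashed. The 8 labelled red points are the genes whose footprint and mRNA changes differed.

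Etoposide cells were also compared with irradiated cells, another senescent state. The etoposide libraries enter both this comparison and the one with cycling cells. Of 11766 genes, 2653 (22.5%) differed, 1615 higher and 1038 lower in etoposide cells. By at least 2-fold, 1333 were higher and 153 lower. Without irradiated replicate 1, 1500 were called. The irradiated libraries held 5556293, 2652013 and 3451589 gene counts, fewer than any etoposide library (6159333 to 6980115). The part of this depth in these counts of genes was not tested. MKI67 had 12.9, 12.2 and 8.11 CPM in irradiated cells, close to the 8.80 to 13.1 CPM of the etoposide cells (difference -0.09, adjusted p = 0.878). CDKN1A had 2000, 2115 and 2370 CPM there and was higher in etoposide cells by 0.36 ± 0.12 (adjusted p = 0.0480). CXCL8 had 2.84, 4.18 and 3.19 CPM in irradiated cells, within the range of the cycling cells, and was higher in etoposide cells by 6.61 ± 0.86 (adjusted p = 0.000325). MMP3, at 0.532, 0.760 and 1.74 CPM, differed by 7.32 ± 0.93, and CXCL1, at 2.31, 4.18 and 4.64 CPM, by 6.02 ± 0.76. IL6 had 11.7, 9.88 and 17.4 CPM and differed by 2.32 ± 0.50. Of the 17 SASP cytokines and chemokines tested, 13 were higher and 1 lower in etoposide than in irradiated cells (median 2.59). Histones were lower in etoposide cells in 22 of 31 tested, none higher, with a median of -1.0.

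**Figure D4:**
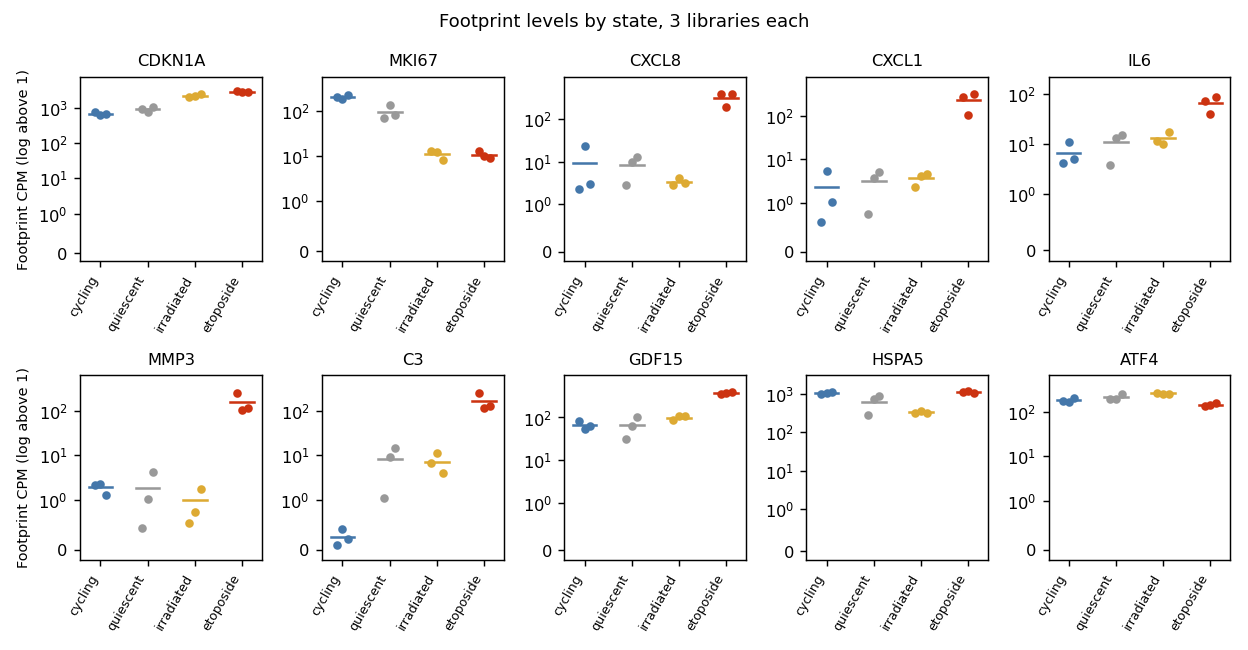
Footprint CPM (vertical axis, linear below 1 and logarithmic above) of 10 genes in 3 libraries of each of 4 states, with bars at the means. CDKN1A and MKI67 of etoposide cells lie near those of irradiated cells, and CXCL8, CXCL1, IL6, MMP3, C3 and GDF15 are highest in etoposide cells.

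Genes of the secretory pathway were higher in etoposide than in irradiated cells. The list of the unfolded protein response and ER chaperones summed to 8799 to 9639 CPM in etoposide cells, 8932 to 9956 CPM in cycling cells and 3082 to 3503 CPM in irradiated cells. Of its 24 tested genes, 22 were higher in etoposide than in irradiated cells and none lower (median 1.55). In mRNA 23 of the 24 were higher, with a median of 1.13. HSPA5 had 323, 372 and 325 CPM in irradiated cells, lower than in any cycling or etoposide library, and differed by 1.79 ± 0.27 (adjusted p = 0.000810). Lysosomal genes were higher in 21 of 27 and lower in 1 (median 1.12), matrix glycoproteins in 13 of 18 and collagens in 8 of 19, with none lower in either. ATF4, in contrast, had 267, 258 and 261 CPM in irradiated cells and was lower in etoposide cells by 0.85 on the log2 scale (-0.85 ± 0.12, adjusted p = 0.000599). DDIT3 differed in the same direction (-1.14 ± 0.24).

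Against quiescent cells, 4212 genes (35.8%) differed, 2233 higher and 1979 lower in etoposide cells. All 31 mitotic and all 31 histone genes tested were lower in etoposide cells, and 22 of 24 ER genes and 22 of 27 lysosomal genes were higher with none lower. Quiescent replicate 1, which was low in ER genes, is part of this comparison. The lysosomal list summed to 3099 CPM in it and to 4986 and 5656 CPM in the other quiescent libraries. These list counts were not tested without it. MKI67 had 67.9, 132 and 80.4 CPM in the quiescent libraries, between cycling and etoposide cells. CDKN1A had 907, 736 and 1035 CPM there and was higher in etoposide cells by 1.63 (adjusted p = 5.42e-07). C3, at 1.10, 9.21 and 14.7 CPM, differed by 4.29.

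**Figure D5:**
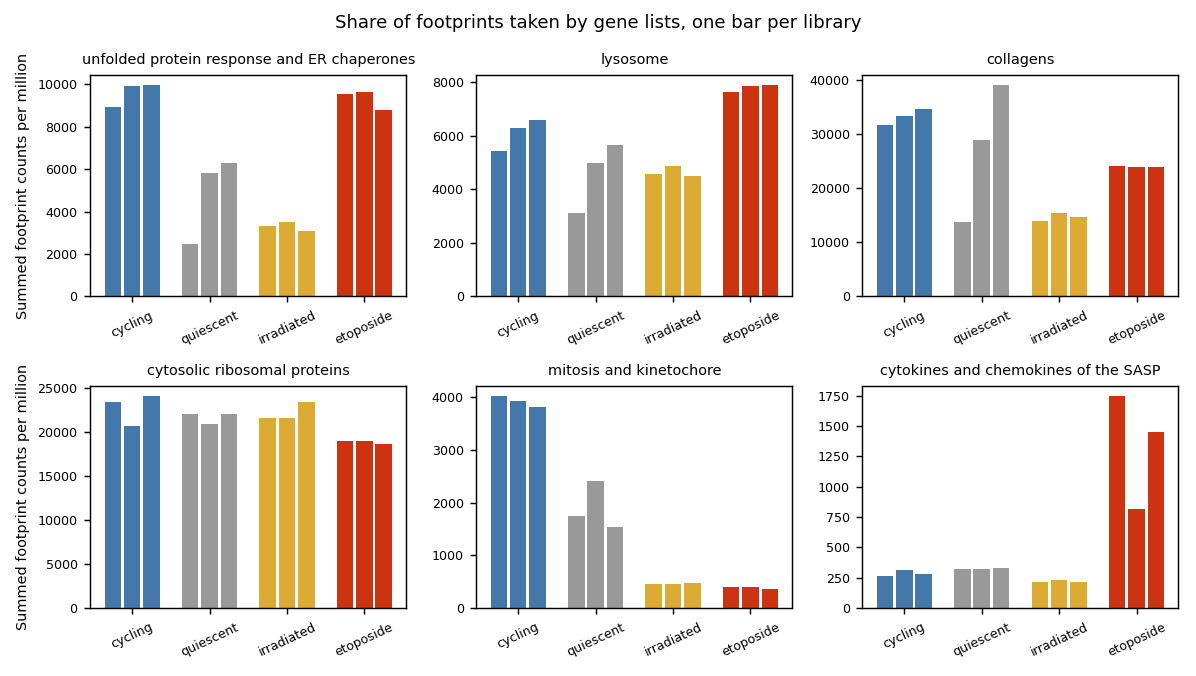
Summed footprint CPM (vertical axis, from 0) of 6 gene lists, with 1 bar for each of the 3 libraries of a state. Mitotic genes are low in both senescent states, SASP cytokines and chemokines are high in the etoposide libraries (817 to 1745), and the ER list is low in irradiated cells and in quiescent replicate 1 (2463).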

How the data were processed

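The deposited values are raw read counts per gene, from STAR 2.7.10b on hg38 per the submitters' processing notes, and the column of one strand was used. Of 19310 protein-coding identifiers, those with enough counts for edgeR's default filter were tested. All 14 Ribo-seq libraries, in 5 states, entered 1 quasi-likelihood fit (edgeR 4.0.16 in R 4.3.3, TMM scaling), with Benjamini-Hochberg adjustment over 11766 genes and a call at an adjusted p under 0.05. The 13 RNA-seq libraries were fitted alike, and TE was an interaction term over all 27. Deviations of the RNA-seq and Ribo-seq libraries of one number correlated at 0.141 and 0.193 in cycling and at 0.132, 0.370 and 0.193 in etoposide cells, so a replicate block was also fitted for TE. CPM of single genes are counts per 1000000 after TMM scaling, with the following exceptions. Sums over lists and markers, and the levels of KRT19, CDH5 and PECAM1, are per 1000000 protein-coding counts without TMM scaling. Those of MT-ND5 are per 1000000 gene counts, also without it. The Ribo-seq and TE fits were also run on simulated counts. Far fewer genes changed in them than were called in these footprints, so that run does not measure the error of these calls. The members and gene lists were chosen with earlier results of these data known. SOD2 and RPL40 are not analysed here. Some list members are not reported here by name. Promoters came from RefSeq (GRCh38.p14).

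Named genes were the 12 largest rises and 12 largest falls with at least 10 CPM and no overlap between groups, the 4 called members of each list with the largest change, a set named whatever its values, the called TE genes with at least 10 CPM in both assays, and the 10 most abundant genes. Other genes named, such as CCNB2, CDC20, CDK1, PCNA, LMNA, GLB1, MMP1, CCL2, CCL7, CXCL12, IL1A, IL32, IGFBP3, IGFBP7 and RPS6, were chosen after their values were seen. Alternatives were other scalings, filters, strands and sample sets, DESeq2 1.42.0, a replicate block and leaving out each library.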

Additional observations from a re-analysis of the deposited data

Results flagged for a closer look

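The effect of etoposide and that of irradiation, each against the same cycling libraries, differed by edgeR's quasi-likelihood test for 12 of the genes that were named whatever their values. The difference (etoposide minus irradiation, footprint log2 fold change) was 7.32 for MMP3, 6.82 for CXCL3, 6.61 for CXCL8, 6.02 for CXCL1, 4.54 for C3, 2.32 for IL6, 1.91 for GDF15, 1.79 for HSPA5 and 0.36 for CDKN1A. It was -0.75 for HMGB2, -0.85 for ATF4 and -1.14 for DDIT3. The other members tested, CDKN2A, CDKN2B, MKI67, LMNB1, TOP2A, TOP2B and PPP1R15A, did not pass this test, and CXCL2 was not tested. Of all genes tested, 22.5% differed between etoposide and irradiated footprints. The set was chosen with earlier results of these data known, so its count is no unselected result.

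Footprint and mRNA changes differed for 8 genes. The difference was 2.22 for RPL7, 1.5 for QRICH1 and 1.26 for CDC42. It was -1.02 for NCS1, -1.10 for DUT, -1.58 for H2AC6, -1.99 for FUT10 and -2.32 for H3C10.

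CXCL2 was too low to be tested and had 0 counts in each cycling library and 7, 4 and 9 counts in the etoposide libraries, 20 in all. Reads shared with CXCL1 and CXCL3 are missing from that count.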

How the results depend on the processing

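The count of genes called between etoposide and cycling footprints (3986) was 6020 on the cycling and etoposide libraries alone, of which 3918 were shared. It was 4550 with DESeq2, 3859 without a count filter and 3012 to 3201 when 1 library was left out. For TE, 8 genes became 29 on the cycling and etoposide libraries alone, 16 without thapsigargin libraries, 40 with DESeq2, 13 with a replicate block and 5 to 8 when 1 library was left out. Between etoposide and irradiated cells, 2653 became 4134 on these groups alone, 4245 with a replicate block and 1500 to 2047 when 1 library was left out, the lowest without irradiated replicate 1.

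Deviations of same-numbered cycling and etoposide libraries correlated at 0.213, -0.255 and -0.0537, so between these states the numbers were not taken to pair libraries. Only replicate 1 correlated best with its own number. With a replicate block, 5792 genes were called on the libraries that gave 6020 without it, and the adjusted p was 0.0503 for CXCL1, 0.0559 for CXCL3, 0.0903 for CXCL8, 0.0589 for IL6 and 0.0700 for PPP1R15A. Of the SASP cytokines and chemokines 8 were then higher and 2 lower. DESeq2 gave no adjusted p for CXCL8.

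Genes whose sign changed were all uncalled: VIM (-0.071 with unstranded counts), FN1 (0.0064 with RLE and DESeq2, 0.00060 with upper-quartile scaling, -0.15 to 0.059 when 1 library was left out) and ACTG1 (0.0039 with RLE and DESeq2, -0.13 to 0.094 when 1 library was left out). The cause was not tested. Genes with few counts in 1 group, such as C3 and IL33, have wide counting intervals, which cover counting error only.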

Other observations

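The 13 proteins encoded by mitochondrial DNA, which stood outside the tests, took 0.0915%, 0.124% and 0.114% of the gene counts of the cycling footprint libraries and 0.110%, 0.148% and 0.130% of the etoposide ones. The groups overlap. MT-ND5, a subunit of respiratory complex I, had 74.8, 105 and 108 CPM in cycling and 126, 188 and 192 CPM in etoposide cells, without overlap, and was chosen after its values were seen.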
